A study of Caenorhabditis elegans with 6 samples.

Results

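The nuclear hormone receptor genes of *Caenorhabditis elegans* that carry an *nhr-* symbol and a number were followed in adult worms on *unc-62* RNAi and on control RNAi. The WBcel235 gene table holds 281 such symbols beside *nhr-49* and *nhr-80*, which were set apart. Of these, 204 were paired with a gene identifier of the libraries and 77 were not analysed here. The 14 genes with 10 or more reads in all 3 libraries of at least 1 treatment were tested, and the other 190 were below that filter. None of the 14 genes passed the main test between treatments, made with limma. Rank products, the test of the study, called 1 of them lower, *nhr-114*. The gene with the lowest fold change was *nhr-114*, a receptor that regulates the methionine cycle in response to diet, with 0.376 ± 0.0999 RPM upon *unc-62* RNAi and 1.16 ± 0.343 RPM on control RNAi (SD, n = 3 each). It passed the read filter in control RNAi alone, which favours genes higher there.

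Nuclear hormone receptors are transcription factors with a zinc-finger DNA-binding domain and a pocket that can bind a small lipophilic ligand. The family is expanded in nematodes, where most members descend from a relative of the vertebrate HNF4 receptor and only a few have clear counterparts in insects and vertebrates. In the adult intestine, several members read out diet, fat and foreign chemicals and switch on the metabolic or defence genes that answer them. UNC-62 is the worm ortholog of Homothorax and Meis, cofactors of the Hox proteins.

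The worms were sterile hermaphrodites of the strain TJ1060, whose genotype the labels write as fem-15(b26);spe-9(hc88), and both treatments carried these alleles. Batches of about 10000 worms were raised at 25°C to the first day of adulthood and then split between plates with *unc-62* RNAi bacteria and plates with empty-vector bacteria, here called control RNAi. They were then kept for 3 days at 20°C, and poly-A RNA of whole day 4 adults was turned into 3′-end enriched libraries, 3 from *unc-62* RNAi and 3 from control RNAi. The strain makes no self progeny when raised at the higher temperature, which the study used to keep RNA of embryos out, and all tissues of the adult are mixed in each library.

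Depth was 17124802 to 22868980 uniquely mapped reads in the *unc-62* RNAi libraries and 15188765 to 21463842 in the control libraries. The deposited values are reads per 1000000 uniquely mapped reads (RPM), not divided by length, since reads come from the 3′ ends of transcripts. The libraries of each treatment shared 1 flow-cell lane, so lane and treatment cannot be told apart. Replicate 3 stood apart: the fold changes of all 7333 tested genes had an SD of 1.23 on the log2 scale within it, against 0.66 in replicate 1 and 0.70 in replicate 2. Receptor calls that turn on it are given with and without it. *unc-62* itself had 17, 39 and 25 reads upon *unc-62* RNAi and 27, 31 and 26 reads on control RNAi, a log2 fold change of -0.27 (adjusted p = 0.746, limma), so its own reads do not part the treatments.

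Most of the paired *nhr* genes had few reads in these adults. Over the 6 libraries together, 21 of the 204 *nhr* genes had no read, which allows at most 0.0267 RPM (3 reads of 112249586, counting error only). This was 10.3% of the paired *nhr* genes and close to the 11.2% of all genes without a read. The 77 symbols that were not paired are outside these shares. A further 90 *nhr* genes, or 44.1%, had 1 to 9 reads, against 25.7% of all genes. The median was 7.5 reads over all 6 libraries, against 33.0 for the 17682 genes of the files. Only 6.86% of the *nhr* genes passed the filter, against 41.5% of all genes. These shares describe levels in both treatments and compare no treatments. Reads that map to more than 1 place were not counted by the authors, so genes with near-identical relatives in the family may be listed too low.

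**Figure D1:**
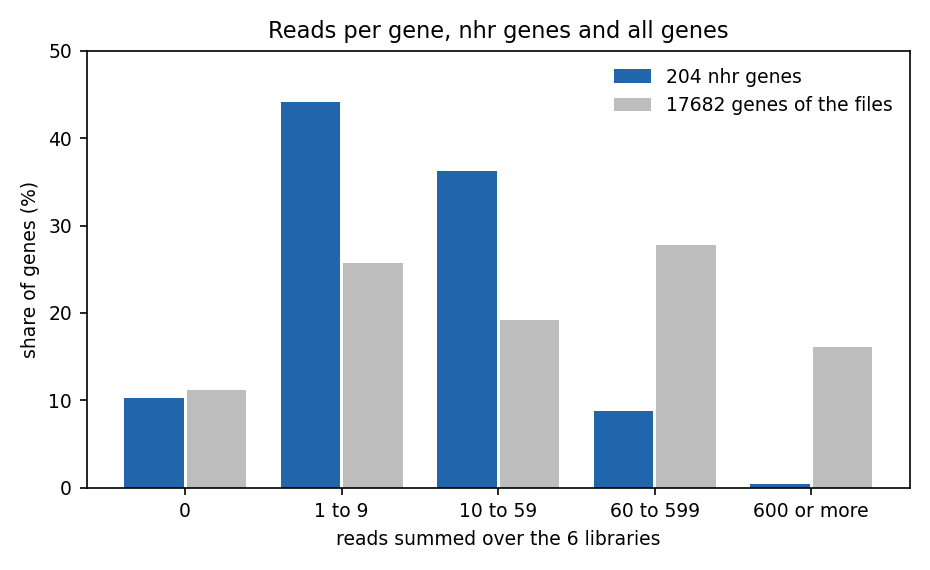
Share of genes (%, vertical axis) in classes of reads summed over the 6 libraries (horizontal axis), for the 204 *nhr* genes (blue) and the 17682 genes of the files (grey). The class of 1 to 9 reads holds 44.1% of the *nhr* genes and 25.7% of all genes, and the highest class holds 0.490% and 16.1%.

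Receptors that passed the filter were compared with the rest of the family by position and gene structure, with no test. The later WBcel235 annotation places 100 of the genes next to another *nhr* gene and 97 next to none. Of those with an *nhr* neighbour 2.0% were tested and their median was 5 reads, against 12.4% and 15 reads among those with none. The only tested genes with such a neighbour were *nhr-58*, beside *nhr-132*, and *nhr-60*, beside *nhr-283*. All 14 tested genes have an annotated 3′ UTR, as do 192 of the listed genes, so the tested genes do not stand apart in this, and the 5 listed genes annotated without one had a median of 0 reads. *nhr-40* overlaps another gene, T03G6.7, on its own strand, and its reads could belong in part to that gene.

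Sums over the family overlapped between treatments. All 204 genes together came to 57.2, 46.0 and 48.1 RPM upon *unc-62* RNAi and 60.9, 41.7 and 44.0 RPM on control RNAi. The 14 tested genes gave 27.6, 22.1 and 25.3 RPM upon *unc-62* RNAi and 33.4, 23.7 and 24.2 RPM on control RNAi. The 190 genes below the filter gave 29.5, 23.9 and 22.8 RPM upon *unc-62* RNAi and 27.5, 18.0 and 19.8 RPM on control RNAi. Within each replicate, the sum of the tested genes was lower upon *unc-62* RNAi in 2 of 3 and that of the genes below the filter was higher in 3 of 3, with no test of these sums.

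Even the tested receptors were weakly expressed. Their median level was 1.18 RPM, against 3.52 RPM for all tested genes, 12 of the 14 were below that median and 8 were at or under 1.61 RPM, the lower quartile of tested genes. The highest, *nhr-48*, ranked 2757 among the tested genes. Single libraries held between 5 and 141 reads of a tested receptor. Of the 14 genes, 10 passed the filter in both treatments, *nhr-114*, *nhr-2* and *nhr-19* only in control and *nhr-86* only upon *unc-62* RNAi. A gene that passes in 1 treatment alone tends to be higher there by the way it was chosen. Just inside the filter were *nhr-86* and *nhr-40*, with at least 12 and 11 reads in each *unc-62* RNAi library. Just outside, with a lowest count of 9 in their better treatment, were *nhr-12*, *nhr-23*, *nhr-35*, *nhr-47* and *nhr-55*.

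**Figure D2:**
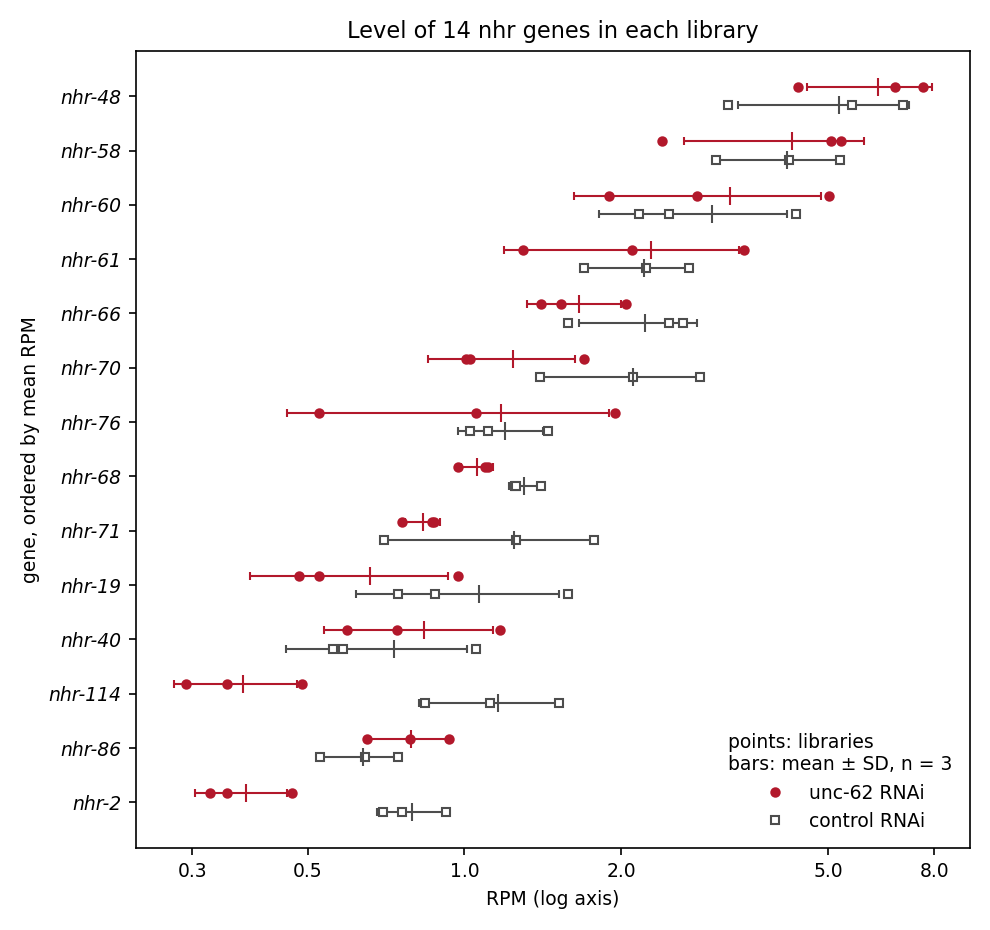
Level of the 14 tested *nhr* genes in RPM (horizontal log axis), with 1 point for each library and a bar for the mean ± SD (n = 3), *unc-62* RNAi in filled red circles above control RNAi in open grey squares. The treatments are apart for *nhr-114*, *nhr-2* and *nhr-68* and overlap for the other 11 genes.

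The question put to the 14 genes was whether their transcripts differ between the treatments. With limma on log2(RPM + 0.05), blocked by replicate and adjusted over all tested genes after Benjamini and Hochberg at 0.1, 0 of 14 were called, beside 1.31% of all tested genes. Their adjusted p ran from 0.184 to 0.974. Without adjustment, 3 of 14 were lower at p under 0.05, beside 8.56% of all tested genes, and 0 of 14 were higher, beside 4.79%. edgeR's quasi-likelihood test on the recovered reads called 0 of 14 (1.38% of all tested genes) with 3 of 14 at an unadjusted p under 0.05 (13.5% of all). DESeq2 also called 0 of 14 (4.01% of all tested genes), with 1 of 14 at an unadjusted p under 0.05 (9.45% of all). Rank products of the fold changes within replicates, the test of the study, put 1 of 14 below 10% false positives as lower, beside 1.57% of all tested genes, and 0 of 14 as higher, beside 0.914%. That gene was *nhr-114*.

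The fold changes of the 14 genes lay between -1.51 and 0.26 on the log2 scale of RPM + 0.05, *unc-62* RNAi over control RNAi, with 10 below 0 and 4 above. Their median was -0.26, beside 0.04 for all tested genes, of which 45.9% were below 0. As 3 of the 14 entered through control alone and 1 through *unc-62* RNAi alone, these counts describe the genes that passed and not the family. Within the replicates the median was -0.42, -0.27 and -0.35, with 0.03, -0.06 and -0.05 over all tested genes. Genes lower in all 3 replicates numbered 5 of 14, beside 19.8% of all tested genes, and 1 of 14 was higher in all 3, beside 16.4%. Every *unc-62* RNAi library was below every control library for 3 of 14, beside 6.93% of all tested genes, and above for 0 of 14, beside 6.44%.

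**Figure D3:**
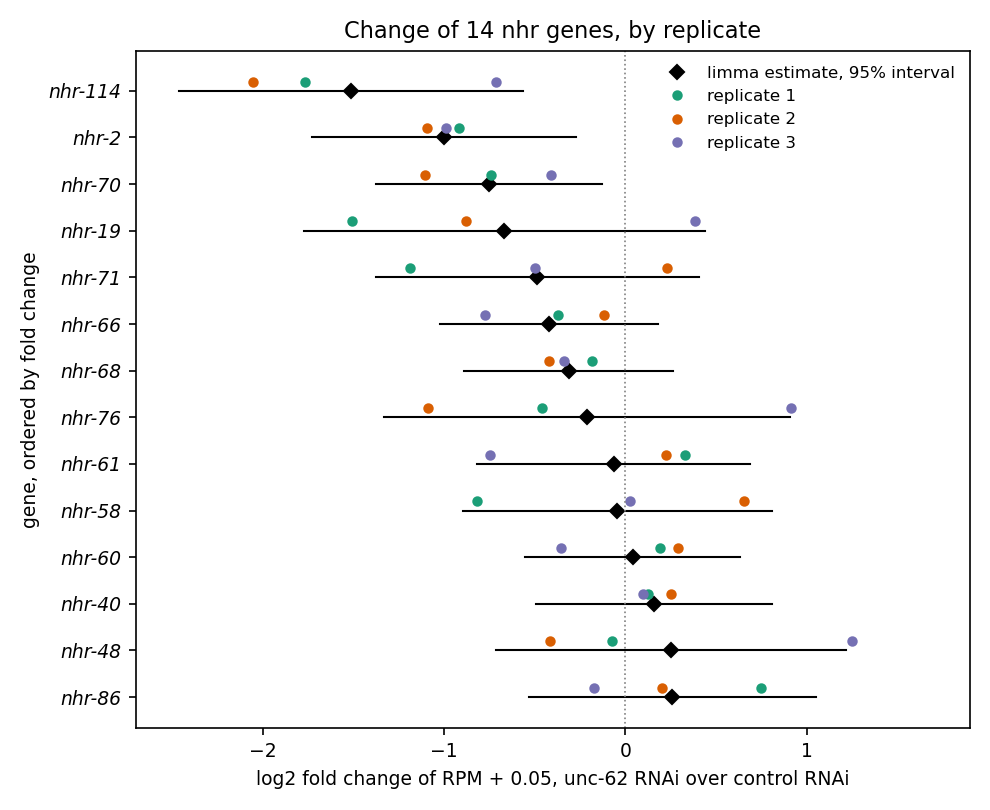
Log2 fold change of RPM + 0.05 (horizontal axis), *unc-62* RNAi over control RNAi, for the 14 tested *nhr* genes, with the limma estimate and its 95% interval (black) and the 3 replicates (coloured points). The intervals of *nhr-114*, *nhr-2* and *nhr-70* stay below 0 before adjustment, and the other 11 contain 0.

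Receptors of the metabolic network came first among the lists of known roles. *nhr-114* (Y45G5AM.1) links diet to the methionine cycle and is needed for fertility on some bacterial diets. It had 0.292, 0.350 and 0.486 RPM in the *unc-62* RNAi libraries, from 5, 8 and 9 reads, and 1.12, 1.52 and 0.839 RPM in the control libraries, from 17, 26 and 18 reads. Every *unc-62* RNAi library was below every control library. The log2 fold change was -1.51 (SE 0.37, 95% interval -2.46 to -0.56), with -1.77, -2.05 and -0.71 in replicates 1, 2 and 3. Its adjusted p was 0.184 by limma, 0.170 by edgeR and 0.169 by DESeq2, and rank products gave 6.57% false positives. Pooled over libraries the RPM ratio was 0.331, with an exact 95% interval from counting alone of 0.194 to 0.548. As *nhr-114* passed the read filter in control RNAi alone, which favours genes higher there, these values are not independent of how it was chosen. In whole worms, fewer cells that express a gene and less of its RNA per cell cannot be told apart.

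Replicate 3 decided whether limma called *nhr-114*. Without it limma gave a log2 fold change of -1.89 (adjusted p = 0.00265, against 0.00265 to 0.696 over all alternatives), in a fit that called 1165 of all genes. The same fit called 3 of 14 receptors lower, *nhr-114*, *nhr-70* and *nhr-19*, beside 9.61% of all tested genes. Of these, *nhr-114* and *nhr-19* passed the read filter in control RNAi alone.

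The other 2 tested genes of this list were closer to equal between treatments. *nhr-66* (T09A12.4) acts with NHR-49 on lipid and sphingolipid genes. It had 2.04, 1.53 and 1.41 RPM upon *unc-62* RNAi and 2.63, 1.58 and 2.47 RPM on control RNAi, lower within each replicate but with overlapping groups (log2 fold change -0.42, SE 0.23, adjusted p = 0.557 from limma, and -0.22 without replicate 3). These values are of transcript T09A12.4d.1. Transcript T09A12.4c had 5, 5 and 6 reads upon *unc-62* RNAi and 10, 7 and 19 on control RNAi, apart in RPM but not tested. *nhr-68* (H12C20.3) turns on the propionate shunt, an alternative route for propionate breakdown when vitamin B12 is short, together with NHR-10. Its levels were even, at 1.11, 1.09 and 0.973 RPM upon *unc-62* RNAi and 1.25, 1.40 and 1.26 RPM on control RNAi. The groups did not overlap, yet the log2 fold change of -0.31 (SE 0.22) had an adjusted p of 0.661 from limma. The 95% interval, -0.89 to 0.26, contains 0.

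The other metabolic receptors were below the filter. *nhr-10*, the other factor of the propionate shunt, had 4, 12 and 8 reads upon *unc-62* RNAi and 7, 4 and 5 on control RNAi. *nhr-13*, a partner of NHR-49, had 13, 7 and 7 reads upon *unc-62* RNAi and 5, 5 and 2 on control RNAi, and overlapped between treatments in RPM. *nhr-62*, needed for the long life of worms under dietary restriction, and *nhr-64* had at most 6 reads in any library. The 2 receptors set apart, both well known in fatty acid metabolism, were better covered: *nhr-49* had a log2 fold change of 0.15 (SE 0.22) and *nhr-80* of 0.21 (SE 0.20), with adjusted p of 0.821 and 0.716 from limma.

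Receptors with counterparts in insects and vertebrates had few reads, with the exception of *nhr-48*. *nhr-48* (ZK662.3), of the group that also holds DAF-12 and NHR-8 and is related to the vertebrate vitamin D receptor, was the highest of the 14. It had 6.72, 4.37 and 7.62 RPM upon *unc-62* RNAi and 6.98, 5.56 and 3.21 RPM on control RNAi, and the groups overlapped. Its fold changes in replicates 1, 2 and 3 were -0.07, -0.42 and 1.25 (limma 0.25, SE 0.38, adjusted p = 0.822), and it was -0.22 without replicate 3 and -0.02 without the control library of replicate 3. These values are of transcript ZK662.3a. Transcript ZK662.3b of the same gene had 16, 28 and 11 reads upon *unc-62* RNAi and 29, 28 and 49 on control RNAi. In RPM, every *unc-62* RNAi library of ZK662.3b was below every control library, with no test.

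The other conserved receptors did not reach the filter. *nhr-23*, the ROR ortholog that drives molting, had 14, 10 and 6 reads upon *unc-62* RNAi and 9, 12 and 10 on control RNAi. *nhr-8*, with roles in cholesterol balance and xenobiotic resistance, had 15, 6 and 3 reads upon *unc-62* RNAi and 4, 9 and 7 on control RNAi. *nhr-25*, the Ftz-F1 ortholog of epidermal development, had 0 reads in all *unc-62* RNAi libraries and 1 read in the control libraries. *nhr-6* (NR4A), *nhr-41* (TR2/TR4), *nhr-67* (Tailless), *nhr-85* (E75) and *nhr-91* (GCNF) had between 0 and 6 reads in any library. Among receptors with other symbols, *daf-12* had 10, 22 and 11 reads upon *unc-62* RNAi and 14, 3 and 10 on control RNAi (log2 fold change 0.61, SE 0.58, adjusted p = 0.725 from limma). It passed the filter upon *unc-62* RNAi alone, which favours genes higher there. *sex-1* and *unc-55* were below the filter, and *fax-1* and *odr-7* were not paired with an identifier.

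Of 6 receptors linked to stress, xenobiotics, pathogens or the excretory cell, only *nhr-86* was tested. *nhr-86* (Y40B10A.8) senses a bacterial metabolite and activates immune genes of the intestine. It had 0.934, 0.787 and 0.649 RPM upon *unc-62* RNAi and 0.527, 0.643 and 0.745 RPM on control RNAi, with overlapping groups. The log2 fold change was 0.26 (SE 0.31, 95% interval -0.53 to 1.05, adjusted p = 0.775 from limma), with 0.75, 0.20 and -0.17 in the replicates, and it was 0.025 without replicate 1, 0.019 without the control library of replicate 1 and 0.50 without replicate 3. *nhr-31*, which acts on proton pump genes in the excretory cell, had 12, 8 and 5 reads upon *unc-62* RNAi and 6, 2 and 4 on control RNAi. *nhr-14*, *nhr-45*, *nhr-57* and *nhr-176* had at most 6 reads in any library.

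Among the other tested receptors, *nhr-2* and *nhr-70* had intervals below 0 before adjustment. *nhr-2* (C32F10.6), first known from the early embryo, had 0.467, 0.350 and 0.324 RPM upon *unc-62* RNAi, from 8, 8 and 6 reads, and 0.922, 0.760 and 0.699 RPM on control RNAi, from 14, 13 and 15 reads. The groups did not overlap and the replicates were close, at -0.92, -1.09 and -0.99. Like *nhr-114*, *nhr-2* passed the read filter in control RNAi alone, which favours genes higher there. The limma fold change was -1.0 (SE 0.28, adjusted p = 0.231, against 0.161 to 0.782 over the alternatives). *nhr-70* (Y51A2D.17) had 1.69, 1.01 and 1.03 RPM upon *unc-62* RNAi and 2.83, 2.11 and 1.40 RPM on control RNAi, lower within each replicate with 1 *unc-62* RNAi library above the lowest control library. Its log2 fold change was -0.75 (SE 0.24, adjusted p = 0.284 from limma), and -0.90 without replicate 3 (adjusted p = 0.0429, against 0.0429 to 0.858 over the alternatives).

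The replicates of *nhr-19* (E02H1.7) pointed in different directions. It had 0.526, 0.481 and 0.973 RPM upon *unc-62* RNAi and 1.58, 0.877 and 0.745 RPM on control RNAi. Its log2 fold change was -0.67 (SE 0.43, adjusted p = 0.627 from limma), and -1.17 without replicate 3 (adjusted p = 0.066, against 0.066 to 0.999 over the alternatives) but -0.24 without replicate 1. *nhr-76* (C05G6.1), which acts in the intestine in the loss of fat that serotonin brings about, had 1.05, 0.525 and 1.95 RPM upon *unc-62* RNAi and 1.45, 1.11 and 1.03 RPM on control RNAi. Its *unc-62* RNAi libraries spanned the control range on both sides. Its log2 fold change of -0.21 (SE 0.44) was 0.23 without replicate 2 and -0.75 without replicate 3.

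The remaining 5 receptors overlapped between treatments. *nhr-58* (R11G11.2) had 2.39, 5.07 and 5.30 RPM upon *unc-62* RNAi and 4.21, 3.04 and 5.26 RPM on control RNAi. *nhr-60* (F57A10.5), expressed in the seam cells of the epidermis, had 5.02, 2.80 and 1.89 RPM upon *unc-62* RNAi and 4.34, 2.16 and 2.47 RPM on control RNAi. *nhr-61* (W01D2.2) had 3.44, 2.10 and 1.30 RPM upon *unc-62* RNAi and 2.70, 1.696 and 2.24 RPM on control RNAi. In these 3 genes the log2 fold change was within 0.1 of 0 with SEs of 0.23 to 0.33. For *nhr-61* this holds for transcript W01D2.2a.1, the one used. Its transcript W01D2.2a.2 had 14, 17 and 14 reads upon *unc-62* RNAi and 21, 16 and 31 on control RNAi. In RPM, every *unc-62* RNAi library of W01D2.2a.2 was below every control library, with no test. *nhr-71* (K11E4.5) had 0.759, 0.875 and 0.865 RPM upon *unc-62* RNAi and 1.78, 0.702 and 1.26 RPM on control RNAi, a log2 fold change of -0.49 (SE 0.35), which was -0.13 without replicate 1 and -0.84 without replicate 2. *nhr-40* (T03G6.2), with a role in muscle development, had 1.17, 0.743 and 0.595 RPM upon *unc-62* RNAi and 1.05, 0.585 and 0.559 RPM on control RNAi, a log2 fold change of 0.16 (SE 0.25), and was the only gene of the 14 above 0 in all 3 replicates.

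The 95% intervals show how large a change these libraries leave possible. Those of the 14 genes reached 0.58 to 1.12 on the log2 scale to each side, with a median of 0.77, against 0.66 over all tested genes. For 5 genes the interval stayed within a change of 1 on the log2 scale in either direction. For 7 it reached 1 or more downwards and for 2 it reached 1 or more upwards, so that a fold change of that size was not excluded there. An adjusted p above 0.1 does not show that a receptor was equal between treatments.

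Genes known to depend on receptors of the family gave a wider range than the receptors. Of 21 listed genes 13 were tested, and 2 rose and 1 fell, beside 1.31% of all tested genes called in either direction. The list was chosen with earlier results of these data known, so its count is not independent of them. Both that rose are immune genes listed with *nhr-86*. *irg-4* had 364, 642 and 224 reads upon *unc-62* RNAi and 17, 32 and 14 on control RNAi (log2 fold change 4.03, SE 0.21, adjusted p = 0.016 from limma). *irg-5* had 129, 83 and 25 reads upon *unc-62* RNAi and 4, 5 and 3 on control RNAi (log2 fold change 3.61, SE 0.39, adjusted p = 0.0674 from limma). As *irg-5* passed the read filter upon *unc-62* RNAi alone, which favours genes higher there, its values are not independent of how it was chosen. *irg-6* was below the filter with at most 3 reads in any library. The call of *irg-4* was lost without replicate 1 (adjusted p = 0.171 from limma, against 1.34e-21 to 0.171 over the alternatives). That of *irg-5* was lost without replicate 1 or 2, or without the control library of replicate 2 or 3, with fold changes of 3.14 to 3.83 and adjusted p of 0.11 to 0.269 from limma. In that order, these fits called 0, 23, 24 and 34 of all tested genes.

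Among 4 genes of the methionine cycle and its folate supply, listed with *nhr-114*, *sams-1* fell. This gene makes S-adenosylmethionine, the methyl donor, and had 252, 287 and 120 reads upon *unc-62* RNAi and 747, 946 and 824 reads on control RNAi. Its RPM was 11.2 ± 4.27 upon *unc-62* RNAi and 47.6 ± 8.57 on control RNAi (SD, n = 3 each), a log2 fold change of -2.17 (SE 0.24, adjusted p = 0.0674 from limma). The call was lost without replicate 1, without replicate 2 and without the control library of replicate 2, where the fold change was -2.36, -2.15 and -2.0 with adjusted p of 0.305, 0.25 and 0.131 from limma. In that order, these fits called 0, 23 and 24 of all tested genes. The other 3 genes did not pass the test: the log2 fold change was 0.51 for *metr-1*, methionine synthase, -0.09 for *mthf-1* and 0.12 for *mel-32*, which supply its folate.

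The other listed genes did not pass in limma with the read filter, the replicate block and all 3 replicates. *acdh-1*, the first enzyme of the propionate shunt, which needs NHR-10 and NHR-68, had 105, 129 and 126 reads upon *unc-62* RNAi and 198, 177 and 483 on control RNAi. The groups did not overlap, with a log2 fold change of -1.25 (SE 0.24, adjusted p = 0.135 from limma, and 0.00138 to 0.674 over the alternatives). It was called without replicate 3 (-0.997, adjusted p = 0.00138 from limma), by DESeq2 (adjusted p = 0.0273) and by limma with no read filter (adjusted p = 0.0879). In that order, these fits called 1165, 294 and 255 genes in all, against 96 in the main fit. The desaturases *fat-5* and *fat-6*, targets of NHR-49 and its partners, were at 0.51 (SE 0.50) and 0.01 (SE 0.20). For *fat-5*, replicates 1, 2 and 3 gave -0.25, -0.20 and 1.97. The 4 proton pump subunits listed with *nhr-31* lay between -0.06 for *vha-8* and 0.58 for *vha-4*. *acs-2*, *fat-7*, *cyp-35D1*, *smf-3*, *mlt-10*, *nas-36* and *nas-37* were below the filter.

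**Figure D4:**
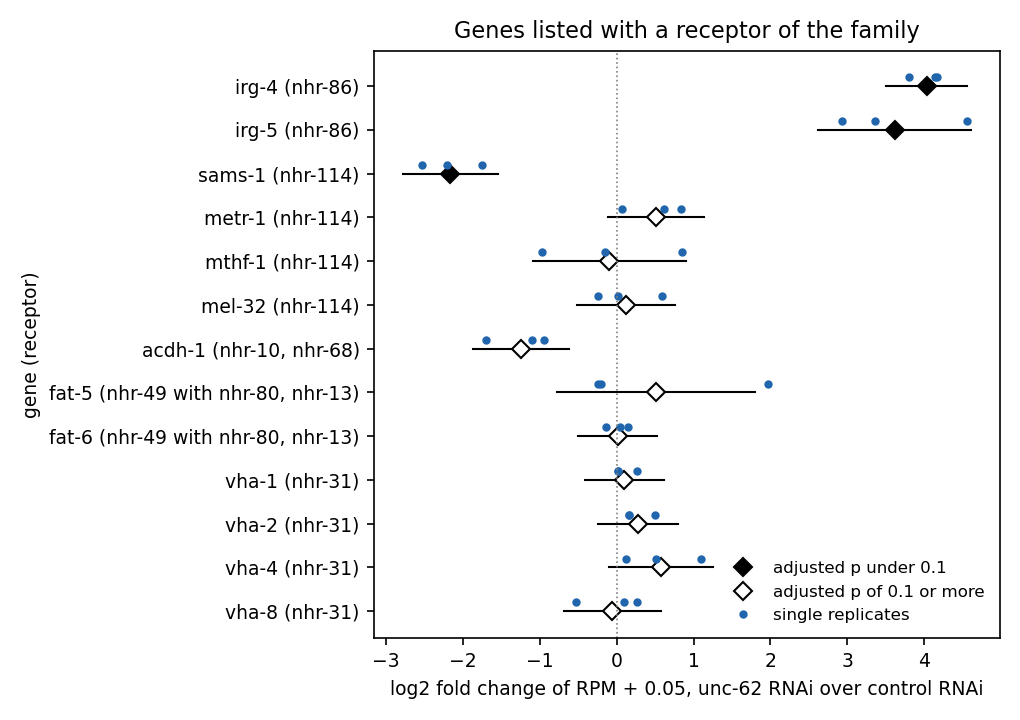
Log2 fold change of RPM + 0.05 (horizontal axis), *unc-62* RNAi over control RNAi, for the 13 tested genes listed with a receptor (named in brackets), with the limma estimate (diamond, filled where the adjusted p is under 0.1), its 95% interval and the single replicates (blue points). In all 3 replicates *irg-4*, *irg-5*, *metr-1*, *vha-1*, *vha-2* and *vha-4* are above 0 and *sams-1* and *acdh-1* below, and only *irg-4*, *irg-5* and *sams-1* have an adjusted p under 0.1.

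With the read filter, the replicate block and all 3 replicates, none of 4 co-regulators that bind nuclear receptors was called by limma, beside 1.31% of all tested genes. Of the 4, 1 was lower at an unadjusted p under 0.05, beside 8.56% of all tested genes. *din-1*, the SHARP-like partner of DAF-12, had 290, 358 and 251 reads upon *unc-62* RNAi and 364, 511 and 433 on control RNAi. The groups did not overlap, and its log2 fold change was -0.69 (SE 0.22, adjusted p = 0.269 from limma, and 0.0107 to 0.848 over the alternatives). Without replicate 3 limma called it, at -0.74 with an adjusted p of 0.0107, in a fit that called 1165 of all tested genes. The mediator subunit *mdt-15*, which works with NHR-49, was at 0.30 (SE 0.32), the corepressor *gei-8* at -0.57 (SE 0.28) and the acetyltransferase *cbp-1* at -0.27 (SE 0.31), each with libraries that overlapped between treatments.

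Markers of the tissues mixed in these libraries moved beside the receptors. Their counts stand beside 1.31% of all tested genes called by limma. At an unadjusted p under 0.05, limma put 8.56% of all tested genes lower and 4.79% higher. Of 8 tested intestinal markers none was called and 3 were higher at an unadjusted p under 0.05, and the summed level of the list was 10073 to 12408 RPM upon *unc-62* RNAi and 7538 to 8345 RPM on control RNAi. Most of that sum came from *mtl-2*, *cpr-1* and *asp-1*, and the log2 fold change was below 0 for *elt-2* (-0.32) and *act-5* (-0.08). Of 5 tested hypodermal markers 1 fell (*rol-6*) and 4 were lower at an unadjusted p under 0.05, with a sum of 205 to 364 RPM upon *unc-62* RNAi and 342 to 680 RPM on control RNAi. Most of this sum came from *col-19*, and *lin-26* had a log2 fold change above 0 (0.37). For *lin-26*, replicates 1, 2 and 3 gave 0.08, -0.44 and 1.48. All 6 tested sperm markers were lower at an unadjusted p under 0.05 and none was called, with a sum of 69.1 to 134 RPM upon *unc-62* RNAi and 119.2 to 313 RPM on control RNAi. Of 9 tested muscle markers 1 fell (*myo-2*) and 4 were lower at an unadjusted p under 0.05, with a sum of 415 to 602 RPM upon *unc-62* RNAi and 339 to 907 RPM on control RNAi. Of 5 tested neuronal markers none was called and 1 was higher at an unadjusted p under 0.05, and of 10 oocyte or germline markers none was called and none had such a p. Among the markers with an unadjusted p under 0.05 by limma, *rol-6*, *sqt-3*, *dpy-13* and *myo-2* passed the read filter in control RNAi alone. *ges-1* and *flp-1* passed it upon *unc-62* RNAi alone. The filter favours genes higher in the treatment where they pass, so these counts are not independent of it. No marker paired with an identifier was at 0 reads in all 6 libraries. The part of these shifts in the levels of the receptors was not tested.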

How the data were processed

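Poly-A RNA of whole day 4 adults was sequenced from 3′ ends (36-base reads, 400 ng mRNA). Per the labels the authors used CASAVA 1.7.0 and Bowtie 0.12.7, and by their methods mapped to WS215 and counted unique sense-strand reads. The deposited signal is RPM for 25531 transcripts. The smallest value of each file gives the RPM of 1 read, and 100.0% of 153186 values were whole reads within 0.01. The transcript with the highest mean stood for each of 17682 genes. Genes with 10 or more reads in all 3 libraries of a treatment were tested (7333). Log2(RPM + 0.05) after TMM scaling was tested with limma 3.58.1 (R 4.3.3), a variance trend and the replicate as a block, as the study takes fold changes within replicates, at a Benjamini-Hochberg adjusted p of 0.1. The fold change understates that of genes with few reads. edgeR 4.0.16 and DESeq2 1.42.0 ran on the recovered reads, and rank products with 10000 permutations on reads plus 1 (Python 3.11.15, numpy 2.4.6, pandas 2.3.3, scipy 1.17.1). limma, edgeR and rank products were tested on simulated data.

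Deviations of equally numbered libraries correlated at 0.42, 0.20 and -0.18, so the values do not settle the pairing. p-values measure the spread between these libraries. Names, neighbours and UTR records come from WBcel235 annotation, a later build, without coordinates. The members and gene lists were chosen with earlier results of these data known. Named receptors are those of the role lists, those called by limma or rank products, the 10 highest, the extremes that held their direction in all 3 replicates, and those at the filter, and the other tested receptors and the listed genes are given for completeness. Alternatives were other pseudocounts (0.01, 0.5), scalings, filters, tests, and leaving out replicates or libraries. Intervals of pooled ratios cover counting error only. No authors' fold changes or p-values were used.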

Additional observations from a re-analysis of the deposited data

How the results depend on the processing

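No receptor was called in any alternative, except by rank products (1 lower) and without replicate 3 (3 lower). Between alternatives the receptors called lower ranged from 0 to 3 when replicates or libraries were left out. All tested genes called numbered 96 with the replicate block and 142 with no replicate block, 294 by DESeq2, 182 by rank products, 255 with no read filter and 0 to 1165 when a replicate or library was left out (506 genes had an unadjusted p under 0.05 by limma where 0 were called). The median log2 fold change of the receptors was -0.26, and -0.18 by edgeR with no replicate block, -0.17 with a pseudocount of 0.5, -0.021 for the 4 genes with 30 reads, 0.13 for the 183 genes with any read (0.03 over all genes of that fit) and -0.36 to -0.18 on leaving out replicates or libraries. The cause of these moves was not tested.

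Directions turned for 6 receptors with estimates near 0, none of them called. With no replicate block in edgeR, *nhr-58* was at 0.04. On leaving out replicates or single libraries, the log2 fold change was -0.40 to 0.41 for *nhr-58*, -0.24 to 0.29 for *nhr-60*, -0.32 to 0.30 for *nhr-61*, -0.75 to 0.23 for *nhr-76*, -0.009 to 0.31 for *nhr-40* and -0.22 to 0.59 for *nhr-48*. The fits on 2 against 3 libraries use no block. The replicate block changed no call of a receptor. The alternatives for *irg-4*, *irg-5*, *sams-1*, *acdh-1* and *din-1* were added after their values were seen. Single libraries held 5 to 141 reads of a tested receptor.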

Other observations

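Several tested receptors are listed with more than 1 transcript, and 4 of them are given here by the reads of a second transcript as a share of those of the transcript used above. They were picked after their values were seen, they differ in direction, and no share was tested. The reads of *nhr-48* transcript ZK662.3b came to 13.9%, 28.0% and 7.80% of those of ZK662.3a upon *unc-62* RNAi, and to 27.4%, 29.5% and 71.0% on control RNAi. Of *nhr-66*, the reads of transcript T09A12.4c were 14.3%, 14.3% and 23.1% of those of T09A12.4d.1 upon *unc-62* RNAi, and 25.0%, 25.9% and 35.8% on control RNAi. The reads of *nhr-61* transcript W01D2.2a.2 were 23.7%, 35.4% and 58.3% of those of W01D2.2a.1 upon *unc-62* RNAi, and 51.2%, 55.2% and 64.6% on control RNAi. For *nhr-114* transcript Y45G5AM.1b the order was the other way round: its reads equalled those of Y45G5AM.1a.1 in the *unc-62* RNAi libraries, and were 76.5%, 88.5% and 61.1% of them on control RNAi. Another transcript of *nhr-114*, Y45G5AM.1a.2, gave 40%, 100% and 77.8% upon *unc-62* RNAi and 76.5%, 84.6% and 50% on control RNAi. The shares of the treatments overlapped for ZK662.3b, W01D2.2a.2 and Y45G5AM.1a.2, and not for T09A12.4c and Y45G5AM.1b. T09A12.4c had at most 6 reads, and Y45G5AM.1b at most 9, in an *unc-62* RNAi library. Over all transcripts the RPM of a library summed to 2160231 to 2236967, above 1000000, so many reads were counted for more than 1 transcript. W01D2.2a.1 and W01D2.2b held the same counts in every library. How many reads the transcripts of each pair share is not given in the sources used here.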
